A study of Mus musculus with 49 samples.

Results

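Genes of the major histocompatibility complex (MHC) class I pathway were followed across normal blood-forming cells of the mouse and across leukaemias started in 4 of those cell types. The set was named by symbol: B2m, H2-K1, H2-D1, Tap1, Tap2, Tapbp, Psmb8, Psmb9, Psmb10 and Nlrc5. A gene entered when its Ensembl identifier in the deposited table mapped to one of these symbols, which held for 9 of the 10 among 38253 genes. Psmb9 has 2 identifiers in the annotation used here, and 0 of these were found in the table, so it has no value below.

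RNA sequencing covered 49 samples. Normal cells were sorted by surface markers from bone marrow of wild-type female C57BL/6J mice aged 6 to 12 weeks. They were haematopoietic stem cells of the long-term (LT-HSC) and short-term (ST-HSC) kind with 5 samples each, 6 samples of multipotent progenitors (MPP), and 3 kinds of myeloid progenitor, namely the common one (CMP, 5 samples), that of granulocytes and macrophages (GMP, 5 samples) and that of megakaryocytes and erythrocytes (MEP, 4 samples). The leukaemias GMP:MA9 (6 samples), MPP:MA9 (6), CMP:MA9 (4) and STHSC:MA9 (3), labelled with the same strain, genotype and age, arose in mice given a sublethal dose of irradiation and then cells of the named type carrying a retrovirus that expresses the MLL-AF9 fusion (MA9) with green fluorescent protein (GFP). The methods of the study give female mice for all experiments. Per those methods, leukaemia cells were GFP+ cells sorted from spleen, although the labels give bone marrow for all samples. Each sample came from its own mouse. Retrovirus, irradiated host and possibly tissue therefore go with leukaemia in every comparison with normal cells, and their parts cannot be told apart. The sort markers followed the normal labels, with Slamf1 (CD150) at a mean of 10.9 FPKM in LT-HSC against 0.17 in MPP, Cd34 at 227 in MPP against 2.19 in MEP, and Fcgr3 at 155 in GMP against 5.5 in CMP. Kit had group means of 57.2 to 110 FPKM in normal cells and of 0.853 to 2.98 in the leukaemias.

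MHC class I molecules show fragments of a cell's own proteins to cytotoxic T cells and are read by natural killer cells. A heavy chain, here H2-K1 or H2-D1, pairs with the light chain encoded by B2m. Peptides are cut by the proteasome, in which the interferon-inducible subunits Psmb8, Psmb9 and Psmb10 can replace the constitutive subunits Psmb5, Psmb6 and Psmb7. The transporter formed by Tap1 and Tap2 carries the peptides into the endoplasmic reticulum, where tapasin (Tapbp) helps to load them, and Nlrc5 is a transcriptional coactivator of class I genes.

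Nlrc5 acts at a promoter module in which a TGACG-like element lies a fixed distance upstream of ATTGG, the reverse complement of a CCAAT box. Upstream stretches of the light chain gene, the 2 heavy chain genes and H2-Q7, a non-classical heavy chain gene that comes up below, are shown so that this module can be read in each. They are RefSeq sequences on GRCm38.p6, 5′ to 3′ in the direction of the gene, and capitals mark TGACG and ATTGG of the module, GGGATTCCC (an NF-kB type element) and GAANNGAAA (an element of the interferon response type), which in both heavy chain genes and H2-Q7 lies on the opposite strand and so is seen as its reverse complement. In B2m the capitals near the start mark a form of that element with an additional A in its first repeat.
B2m: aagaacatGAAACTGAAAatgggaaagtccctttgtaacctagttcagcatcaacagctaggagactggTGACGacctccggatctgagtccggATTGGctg
H2-K1: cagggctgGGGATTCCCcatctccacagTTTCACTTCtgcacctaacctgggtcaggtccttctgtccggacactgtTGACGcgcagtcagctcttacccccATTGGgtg
H2-D1: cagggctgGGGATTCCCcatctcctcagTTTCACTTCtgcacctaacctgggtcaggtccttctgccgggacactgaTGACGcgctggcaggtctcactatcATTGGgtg
H2-Q7: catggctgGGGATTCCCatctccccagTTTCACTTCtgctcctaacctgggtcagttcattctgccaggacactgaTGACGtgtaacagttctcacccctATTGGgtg

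The stretches lie at chr2:122147540-122147641 for B2m (plus strand), chr17:34000356-34000465 for H2-K1 (minus strand), chr17:35262916-35263025 for H2-D1 (plus strand) and chr17:35439015-35439122 for H2-Q7 (plus strand). Promoter windows of 300 bases, 250 before and 50 after a start, were found for 8 of the 10 genes and not for Tap2 or Nlrc5. TGACG followed by ATTGG with exactly 20 bases between them was found, in the direction of the gene, in B2m, H2-K1 and H2-D1 among the listed genes, and in 19 of 32851 windows in all (0.0578%). In H2-Q7 the same pair lay 19 bases apart, as in 7 windows (0.0213%). Searched on both strands, GGGATTCCC was in 0.353% of windows, GAANNGAAA in 7.52%, its form with the additional A in 3.44%, TGACG alone in 20.8% and ATTGG alone in 37.4%. The H2-K1 and H2-D1 stretches were identical at 99 of 110 positions (90%). A match of letters describes the sequence and does not show a site in use.

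Values are FPKM (fragments mapped to a gene, scaled to its length and to the fragments mapped in the sample), which allow levels of different genes to be compared per length. The summed FPKM of a sample ranged from 694414 to 955433 and the number of genes above 0 from 15282 to 17852, and the number of reads behind a single value cannot be read from FPKM. Over all 49 samples B2m had a mean of 2470 FPKM and ranked 21st of 12666 genes whose mean was 1 FPKM or more. H2-K1 ranked 171st at 548 FPKM and H2-D1 241st at 337 FPKM. The immunoproteasome subunits followed at 97.9 FPKM (Psmb8) and 46.9 (Psmb10), then Tapbp at 32.1, Tap1 at 23.8, Nlrc5 at 9.86 and Tap2 at 7.47. All 9 genes were above 0 in all 49 samples.

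**Figure D1:**
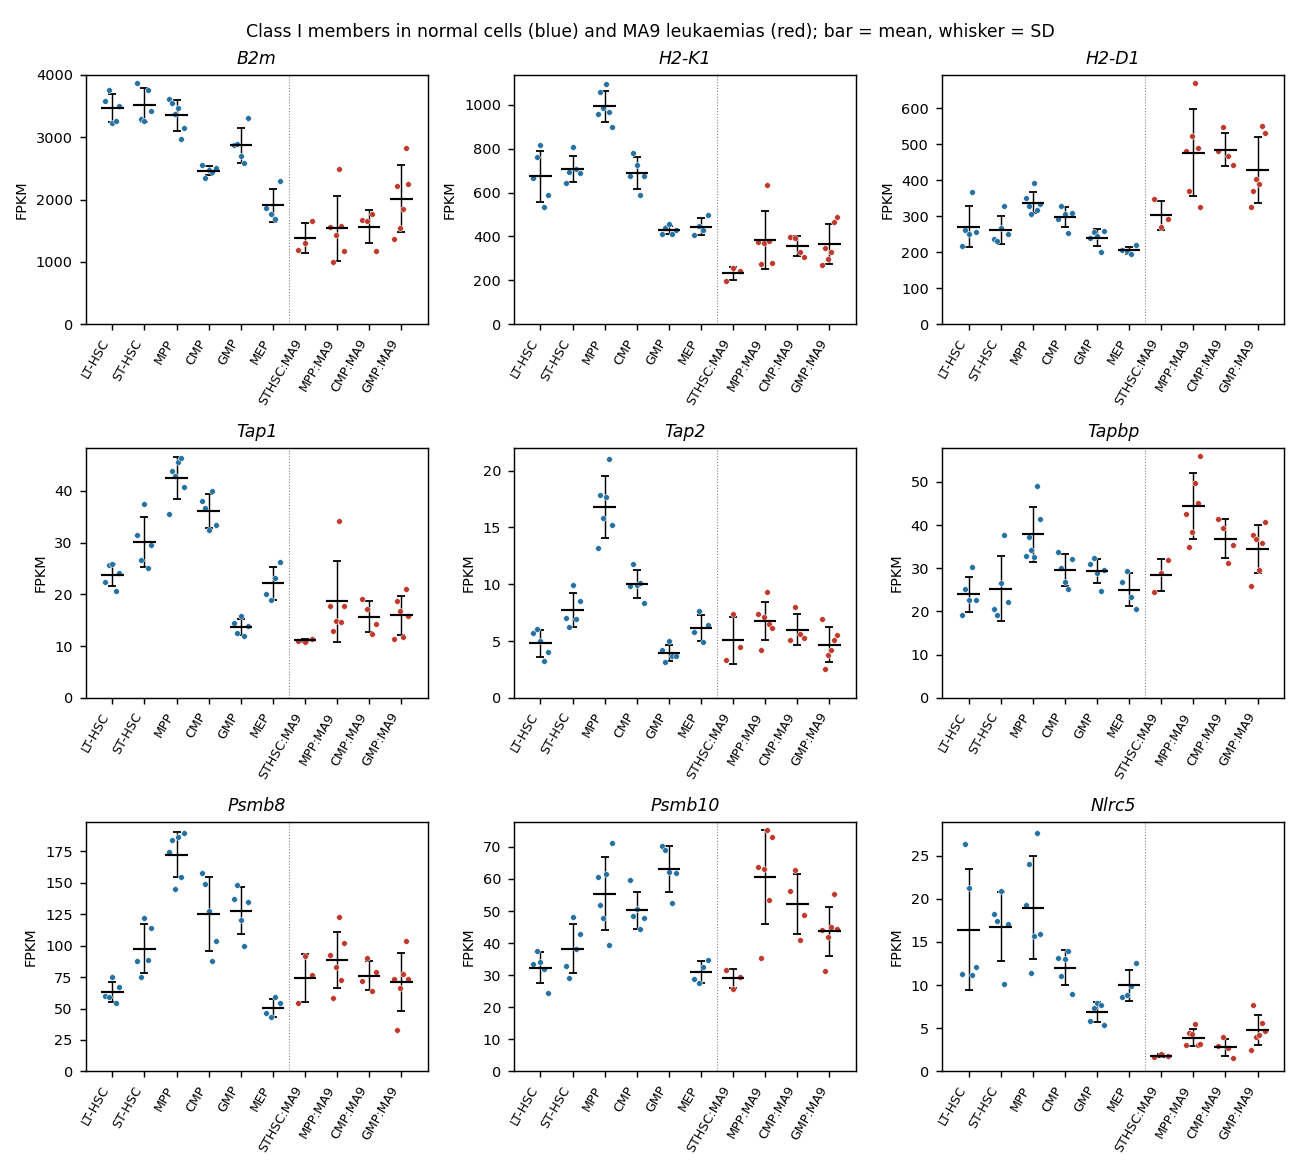
FPKM of the 9 measured class I genes (y axis of each panel, from 0) in the 6 normal groups (blue) and 4 MA9 leukaemia groups (red) on the x axis. Points are samples, bars means and whiskers SD. MPP had the highest normal mean for 7 of the 9 genes (the share over all genes was not computed), and Nlrc5 was between 1.54 and 7.64 FPKM in the leukaemias.

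Among normal cells most of the 9 genes had their highest mean in MPP. This held for 7 of the 9, whereas B2m was highest in ST-HSC and Psmb10 in GMP. The share of all genes with their highest mean in MPP was not computed, so this count does not set the class I genes apart. The spread between the highest and lowest normal group was 4.27-fold for Tap2, 3.41-fold for Psmb8 and 3.09-fold for Tap1, and 1.58-fold for Tapbp. Tests used limma on log2(FPKM + 1), a scale that understates changes of low genes, with adjustment over all genes tested (Benjamini-Hochberg). To be called, a gene needed both an adjusted p under 0.05 and a log2 difference beyond 1 in size, that is, over 2-fold. Folds given for tested differences come from that log2 difference and so are of FPKM + 1. For low genes they fall short of the ratio of the printed FPKM. The spreads between normal groups above are ratios of mean FPKM. In bulk samples a lower value can come from fewer cells that express a gene or from less RNA per cell, which cannot be told apart.

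From ST-HSC to MPP the transporter and proteasome genes rose. Tap2 was at 7.03, 6.22, 9.97, 6.92 and 8.49 FPKM in ST-HSC and between 13.2 and 21.1 (median 16.8) in MPP. No ST-HSC sample reached the MPP range. This made Tap2 2.04-fold lower in ST-HSC (log2 -1.03 ± 0.14 SE, adjusted p = 1.25e-05), 1 call among 9 against 3.44% of 12367 genes called in either direction. A further 6 genes (H2-K1, H2-D1, Tap1, Tapbp, Psmb8, Psmb10) passed the adjusted p with lower values in ST-HSC but under 2-fold, so that 7 of 9 passed it against 18.9% of all genes. B2m and Nlrc5 did not pass it. After correction for GC content and gene length, Tap2 and Psmb8 still passed the adjusted p and the other 5 did not. Tap2 was then under 2-fold (log2 -0.65), as it was under median-ratio scaling of the samples (log2 -0.92). Leaving out ST-HSC replicate 2 or MPP replicate 5 also took Tap2 below 2-fold (log2 -0.97 in each case). H2-D1 did not pass under median-ratio scaling (adjusted p = 0.187), nor without ST-HSC replicate 1 or 2 or MPP replicate 4 (adjusted p of 0.0541 to 0.0617).

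Between LT-HSC and ST-HSC, limma called 0 of the 9 genes. With 2.26% of all genes called, 0 of 9 does not set these genes apart. At an unadjusted p below 0.05 were 3 of the 9, beside 2775 of 12367 genes. Tap2 (log2 -0.60 ± 0.15 SE) and Psmb8 (-0.61 ± 0.15 SE) passed the adjusted p with lower values in LT-HSC, 2 of 9 against 9.19%. Both also passed with the replicate number as a block. Replicates 4 and 5 of LT-HSC and ST-HSC carried S100a8, a granulocyte gene, at 2201 to 20265 FPKM, and their other samples at 6.49 to 352 FPKM. Without those 4 libraries, and so with fewer samples, Tap2 (log2 -0.38, adjusted p = 0.172) and Psmb8 (log2 -0.53, adjusted p = 0.0867) no longer passed. Tap1 passed when LT-HSC replicate 3 (adjusted p = 0.0474) or ST-HSC replicate 4 (adjusted p = 0.0279) was left out.

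Means of H2-K1, Tap1, Tap2 and Nlrc5 descended from MPP through CMP and MEP to GMP, while Psmb10 had a higher mean in GMP (63.1 FPKM) than in MPP (55.5). Between MPP and CMP, limma called 0 of the 9 genes against 4.32%. At an unadjusted p below 0.05 were 7 of the 9, beside 3485 of 12367 genes. B2m, H2-K1, Tap2 and Psmb8 passed the adjusted p with higher values in MPP (4 of 9 against 14.5%). Psmb8 did not pass without CMP replicate 4 or 5 (adjusted p = 0.0863 and 0.0827), and Nlrc5 did without MPP replicate 3 (adjusted p = 0.0290). CMP and GMP parted in the transporter. Tap1 was at 38.2, 36.7, 32.4, 40.1 and 33.4 FPKM in CMP and at 14.5, 12.6, 15.8, 12.0 and 13.8 in GMP. The groups did not overlap, and Tap1 was 2.52-fold higher in CMP (log2 1.33 ± 0.11 SE, adjusted p = 2.97e-10). Tap2 was 2.24-fold higher, so that 2 of 9 genes were called against 11.2%, and H2-K1, H2-D1 and Nlrc5 passed under 2-fold, which makes 5 of 9 against 36.7%. After correction for GC content and length, Tap1 stood at a log2 of 0.91 and Tap2 at 0.68, still past the adjusted p but under 2-fold. Nlrc5 did not pass after it (log2 0.31, adjusted p = 0.272), while Tapbp, Psmb8 and Psmb10 did, with lower values in CMP (log2 -0.43, -0.34 and -0.58). H2-D1 did not pass after that correction or under median-ratio scaling of the samples (log2 0.05 and 0.08), nor without CMP replicate 1, 2, 3 or 5 or GMP replicate 1 or 4 (adjusted p of 0.0501 to 0.112). Median-ratio scaling moved the median of all genes by -0.19 in this comparison, and under it B2m (-0.44) and Psmb10 (-0.55) passed with lower values in CMP. Psmb10 passed, lower in CMP, without CMP replicate 1 or GMP replicate 4 (adjusted p = 0.0497 and 0.0496).

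MEP had the lowest immunoproteasome levels. Psmb8 was at 46.3, 42.9, 58.9 and 54.4 FPKM in MEP, below each of the CMP samples (87.8 to 158) and each of the GMP samples (99.6 to 148). It was 2.41-fold higher in CMP than in MEP (log2 1.27 ± 0.16 SE, adjusted p = 5.74e-07), the 1 call of 9 against 11.8%, and 7 of 9 passed the adjusted p against 31.6%, all higher in CMP. Under median-ratio scaling B2m (adjusted p = 0.153) and H2-D1 (0.0548) did not pass. Between GMP and MEP both immunoproteasome genes were called, Psmb8 at 2.49-fold and Psmb10 at 2.00-fold higher in GMP, 2 of 9 against 20.5%. There 5 of 9 passed the adjusted p against 46.7%, with Tap1 and Tap2 lower in GMP and B2m higher. After the GC and length correction Tap2 did not pass (log2 -0.25, adjusted p = 0.169), and H2-D1 (0.32) and Tapbp (0.49) did. The call of Psmb10 sat at the 2-fold limit and was lost without GMP replicate 1 or 2 (log2 0.96 and 0.97) or MEP replicate 1 or 2 (0.97 and 0.95).

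Each leukaemia was then compared with the normal cell in which it was started. Among the 9 genes, 4 were called lower when STHSC:MA9 was set against ST-HSC (B2m, H2-K1, Tap1, Nlrc5), beside 11.9% of 12600 genes called lower. MPP:MA9 had 5 called lower (the same 4 and Tap2) against 13.6%, CMP:MA9 2 (Tap1, Nlrc5) against 14.8%, and GMP:MA9 0 against 8.87%. None was called higher in any of the 4 comparisons. With no fold limit 5 of 9 passed the adjusted p in STHSC:MA9 (48.4% of all genes), 7 in MPP:MA9 (62.5%), 7 in CMP:MA9 (59.8%) and 5 in GMP:MA9 (58.4%). In GMP:MA9, 5 of 9 had an unadjusted p below 0.05 by limma, beside 7832 of 12600 genes. The median log2 difference of the 9 genes was -0.57, -1.18, -0.67 and -0.26 in that order of origins, beside -0.04, -0.09, -0.16 and 0.0035 over all genes tested. Median-ratio scaling of the samples moved the median of all genes by 0.15 in the CMP:MA9 comparison and by at most 0.08 in the other 3, and under it Tap1 in CMP:MA9 stood at -0.996, just under the fold limit.

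**Figure D2:**
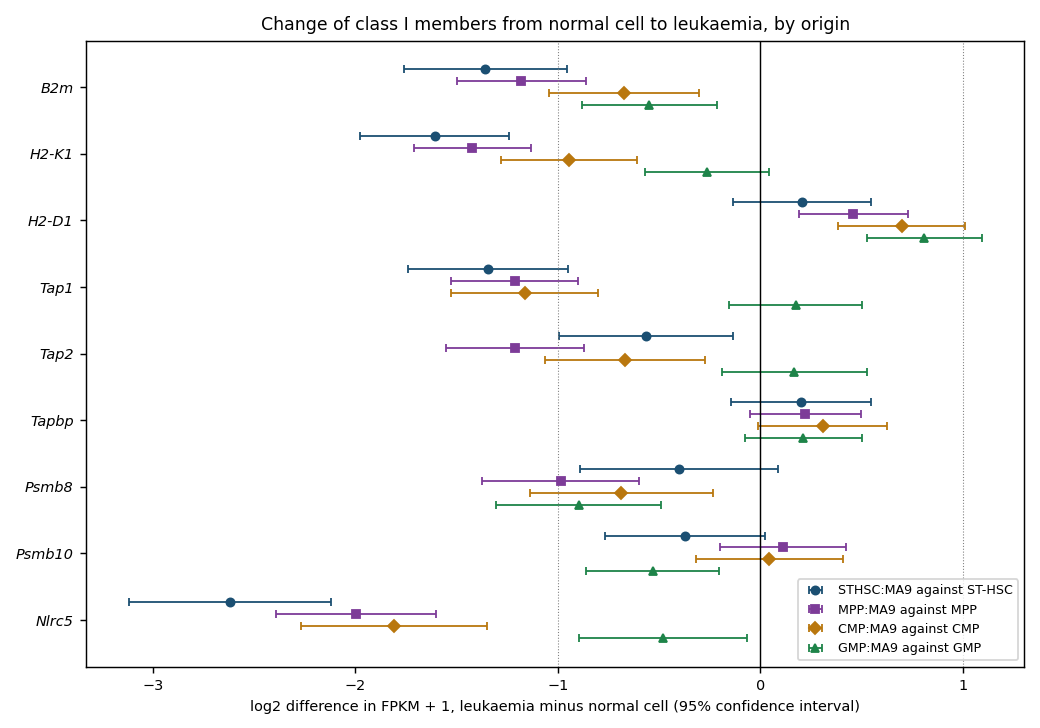
Difference of leukaemia from its own normal cell for the 9 measured genes (y axis), as log2 of FPKM + 1 with 95% confidence intervals (x axis), with a symbol for each of the 4 origins. Dotted lines mark 2-fold. B2m, H2-K1, Tap1 and Nlrc5 lie furthest to the left in STHSC:MA9, Tapbp lies between 0.20 and 0.31 in all 4, and H2-D1 lies to the right of 0.

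Nlrc5, the coactivator, had the largest difference of the 9 in 3 of the 4 origins. It was at 18.2, 17.5, 20.9, 10.2 and 17.1 FPKM in ST-HSC and at 1.63, 2.06 and 1.79 in STHSC:MA9. The groups did not overlap, and Nlrc5 was 6.15-fold lower in FPKM + 1 in the leukaemia (log2 -2.62 ± 0.25 SE, adjusted p = 4.53e-11). In MPP it ran from 11.4 to 27.7 FPKM (median 17.6) and in MPP:MA9 from 3.02 to 5.49 (median 3.75), which gave 3.99-fold lower (log2 -2.0 ± 0.19 SE, adjusted p = 4.35e-11). In CMP it was at 13.2, 11.1, 13.1, 13.9 and 8.93 and in CMP:MA9 at 2.89, 3.93, 2.76 and 1.54, 3.5-fold lower (log2 -1.81 ± 0.23 SE, adjusted p = 1.81e-08). In all 3 origins every leukaemia sample lay below every sample of its normal cell. GMP already had the lowest normal level, at 5.83, 7.39, 7.89, 7.71 and 5.4, and GMP:MA9 ranged from 2.52 to 7.64 (median 4.45). Those ranges overlapped, and the difference of -0.48 ± 0.20 SE passed narrowly (adjusted p = 0.0420). Without GMP:MA9 replicate 1 it was -0.35 (adjusted p = 0.139), and leaving out GMP replicate 2, 3 or 4 or GMP:MA9 replicate 3, 4 or 6 also left it short of the threshold (adjusted p of 0.0534 to 0.0934). The annotation used here gives Nlrc5 (chromosome 8, 96996663 to 97051172, NCBIM37, plus strand) the type lincRNA, although it encodes a protein, and 0% of its 31-base windows occur in another gene.

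B2m, the light chain gene, passed with lower values in each of the 4 leukaemias. ST-HSC samples held 3861, 3298, 3264, 3763 and 3417 FPKM and STHSC:MA9 samples 1195, 1302 and 1649. This was a 2.56-fold difference (log2 -1.36 ± 0.20 SE, adjusted p = 5.42e-07). The difference was 2.27-fold in MPP:MA9, where samples ran from 1000 to 2493 (median 1489) against 2970 to 3617 (median 3416) in MPP (adjusted p = 4.66e-08). In neither pair did the groups overlap. CMP samples, at 2549, 2343, 2472, 2445 and 2513, also stood above each CMP:MA9 sample, at 1668, 1649, 1769 and 1175, but by less than 2-fold (1.59-fold, adjusted p = 0.00191). GMP (2879, 2882, 2694, 2579 and 3299) and GMP:MA9 (1369 to 2830, median 2034) overlapped, with a 1.46-fold difference (adjusted p = 0.00466) that did not pass under the GC and length correction with the replicate block (adjusted p = 0.0734). B2m lies on chromosome 2 (121973422 to 121978819, NCBIM37, plus strand), apart from the heavy chain genes on chromosome 17.

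H2-K1, a heavy chain gene, followed B2m in the stem and multipotent origins. It was at 644, 696, 807, 709 and 688 FPKM in ST-HSC and at 199, 257 and 241 in STHSC:MA9. That was 3.05-fold lower (log2 -1.61 ± 0.18 SE, adjusted p = 2.95e-09), with no overlap. MPP ran from 897 to 1093 (median 976) and MPP:MA9 from 272 to 636 (median 372), 2.68-fold lower (adjusted p = 1.00e-10), again with no overlap. CMP samples held 674, 781, 724, 587 and 675 and CMP:MA9 samples 399, 394, 329 and 308, lower by 1.93-fold (adjusted p = 9.03e-06). This came to just over 2-fold without CMP replicate 4 or without CMP:MA9 replicate 1 (log2 -1.001 each). GMP (411, 437, 458, 412 and 432) lay within the range of GMP:MA9 (272 to 488, median 339), and the difference of -0.26 ± 0.15 SE did not pass (adjusted p = 0.133), with a 95% interval from -0.57 to 0.04. Leaving out GMP:MA9 replicate 6 brought it past the threshold (log2 -0.35, adjusted p = 0.0445).

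H2-D1, the other classical heavy chain gene, went the opposite way. It was at 240, 257, 246, 200 and 260 FPKM in GMP and from 325 to 552 (median 397) in GMP:MA9, 1.75-fold higher with no overlap (log2 0.81 ± 0.14 SE, adjusted p = 7.50e-06). CMP:MA9 samples (481, 549, 467 and 442) all lay above the CMP samples (292, 328, 308, 254.9 and 310), at 1.62-fold higher (adjusted p = 0.000211). In MPP:MA9 the gene was 1.37-fold higher (adjusted p = 0.00312), from 326 to 670 against 306 to 392.5 in MPP. In STHSC:MA9 the values of 348, 269 and 293 overlapped those of ST-HSC (236, 232, 269, 328 and 251), and the difference of 0.21 ± 0.17 SE did not pass (adjusted p = 0.320). None of these differences reached 2-fold.

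The ratio of H2-D1 to H2-K1 within a sample, which does not depend on how samples are scaled, was examined after these values were seen and is given as a description. It ran from 0.306 to 0.688 (median 0.429) in the 30 normal samples and from 1.05 to 1.74 (median 1.21) in the 19 leukaemias, so that H2-K1 exceeded H2-D1 in each normal sample and H2-D1 exceeded H2-K1 in each leukaemia. Normal means went from 0.341 ± 0.0278 (SD, n = 6) in MPP to 0.559 ± 0.0477 (SD, n = 5) in GMP. Leukaemia means were 1.34 ± 0.363 (SD, n = 3) in STHSC:MA9, 1.26 ± 0.132 (SD, n = 6) in MPP:MA9, 1.36 ± 0.106 (SD, n = 4) in CMP:MA9 and 1.18 ± 0.106 (SD, n = 6) in GMP:MA9. The ranges of the 4 leukaemia groups overlapped. H2-K1 and H2-D1 are paralogs that share stretches of sequence, on chromosome 17 at 34132962 to 34137278 (minus strand) and 35399675 to 35404444 (plus strand) of NCBIM37. Of their 31-base exon windows 25.2% and 26.7% also occur in another gene, 12.3% and 12.7% of them in each other, so the split of reads between them is uncertain, and its part in the ratio was not tested.

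**Figure D3:**
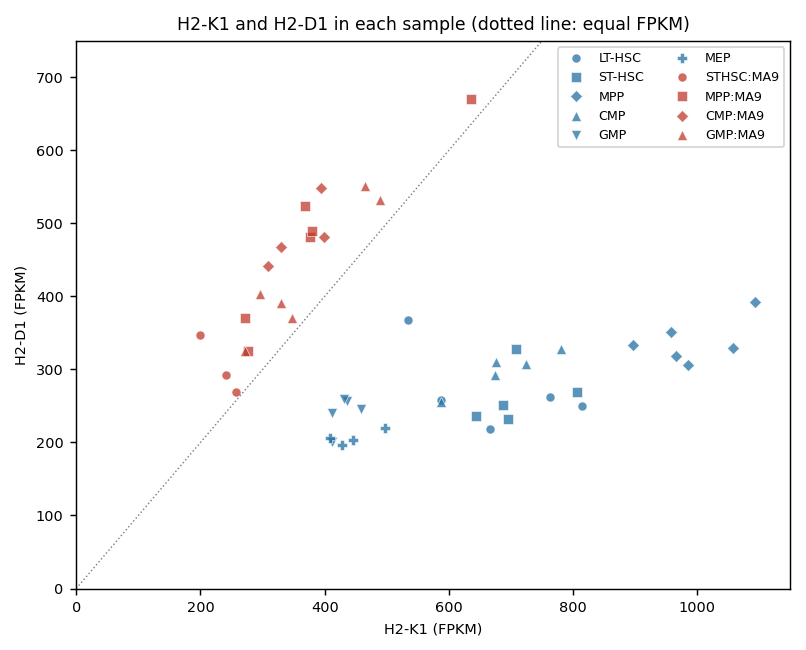
H2-D1 (y axis, FPKM) against H2-K1 (x axis, FPKM) in each of the 49 samples, with normal groups in blue and leukaemias in red and a symbol for each group. The dotted line marks equal FPKM, and the 19 leukaemias lie above it and the 30 normal samples below it.

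The transporter genes were lower in all origins but GMP. Tap1 was at 31.4, 26.7, 37.5, 25.2 and 29.5 FPKM in ST-HSC and at 11.03, 10.85 and 11.47 in STHSC:MA9, 2.54-fold lower (log2 -1.34 ± 0.20 SE, adjusted p = 4.92e-07). It was 2.32-fold lower in MPP:MA9 (12.9 to 34.2, median 16.3, against 35.5 to 46.5, median 43.4) and 2.24-fold lower in CMP:MA9 (19.1, 17.2, 12.4 and 14.2, against the CMP values given above), with adjusted p of 1.91e-08 and 1.01e-06. None of the 3 pairs overlapped. GMP:MA9, from 11.4 to 21.1 (median 16.4), overlapped GMP and did not pass (log2 0.17 ± 0.16 SE, adjusted p = 0.369). Tap2 was called in MPP:MA9 (4.24 to 9.30, median 6.80), 2.32-fold lower than in MPP (adjusted p = 1.01e-07), and was 1.59-fold lower in CMP:MA9 and 1.48-fold lower in STHSC:MA9. The last of these (3.31, 7.36 and 4.5 FPKM, log2 -0.57, adjusted p = 0.0262) overlapped ST-HSC. Without the 2 ST-HSC libraries high in S100a8 it no longer passed, at a nearly unchanged log2 of -0.56 (adjusted p = 0.0550). It also did not pass without ST-HSC replicate 3 or 5 or STHSC:MA9 replicate 1 or 3. GMP:MA9 (2.55 to 6.97) did not differ beyond its spread from GMP in Tap2 (adjusted p = 0.429). Tap1 and Tap2 lie close together on chromosome 17 (34324498 to 34334170 and 34340472 to 34353266 of NCBIM37, plus strand), 15.6% of the Tap2 windows occur in another gene, and the library kit is not stated to keep strand.

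Tapbp, the loading factor tapasin, showed no called difference. In the 4 comparisons its log2 difference was 0.20, 0.22, 0.31 and 0.21, in the order of origins above, with SE of 0.14 to 0.17 and adjusted p of 0.346, 0.151, 0.0892 and 0.200. CMP:MA9, at 41.5, 39.3, 31.2 and 35.4 FPKM against 33.9, 30.1, 26.8, 25.1 and 32.0 in CMP, came past the threshold under median-ratio scaling and under the GC and length correction. All 4 groups overlapped their normal cells, and the 95% intervals of the other 3 ran from -0.15 to 0.55.

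The immunoproteasome genes moved by less than 2-fold. Psmb8 was at 145 to 189 FPKM (median 180) in MPP and at 58.7 to 123 (median 87.6) in MPP:MA9, with no overlap and a 1.98-fold difference (log2 -0.99 ± 0.19 SE, adjusted p = 3.12e-05). Leaving out MPP replicate 3 or 5 or MPP:MA9 replicate 1, 4 or 6 took it past 2-fold (log2 -1.01 to -1.09). Psmb8 was 1.86-fold lower in GMP:MA9 (32.8 to 104, median 73.6, against 137, 148, 120, 99.6 and 135 in GMP, adjusted p = 0.000253), and past 2-fold without GMP:MA9 replicate 5 (log2 -1.02). It was 1.61-fold lower in CMP:MA9 (adjusted p = 0.00812) and at 54.3, 91.9 and 76.5 in STHSC:MA9 did not pass (adjusted p = 0.173). Psmb10 passed in GMP:MA9 alone, at 31.3 to 55.4 (median 44.3) against 70.1, 69.0, 62.1, 52.5 and 61.8 in GMP (1.45-fold lower, adjusted p = 0.00508). Its values in the other 3 overlapped those of the normal cells, with adjusted p of 0.113 to 0.850.

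Immunoproteasome subunits replace constitutive ones, and the ratio of each pair within a sample was therefore compared, as the mean log2((FPKM + 1)/(FPKM + 1)), in 8 two-sided exact permutation tests with adjustment over them. The ratio of Psmb8 to Psmb5 had a mean of 1.499 ± 0.0906 (SD, n = 6) in MPP and 0.579 ± 0.163 (SD, n = 6) in MPP:MA9. No sample overlapped, and the log2 ratio was lower by 1.41 (exact permutation test, p = 0.00216, adjusted p = 0.0173), the 1 of 8 tests that passed. In STHSC:MA9 both ratios lay below all ST-HSC samples, Psmb8 to Psmb5 at a mean of 0.466 against 0.882 and Psmb10 to Psmb7 at 0.261 against 0.465, but 3 against 5 samples cannot give an exact permutation p below 0.0357 (adjusted p = 0.0952 for each). The other 5 had adjusted p of 0.199 to 0.355 (exact permutation tests) and went both ways. Psmb10 to Psmb7 was higher in MPP:MA9, CMP:MA9 and GMP:MA9 (log2 0.31, 0.40 and 0.23). Psmb8 to Psmb5 was lower in CMP:MA9 and GMP:MA9 (log2 -0.62 and -0.18). The lowest ratios of all were in normal MEP, at 0.271 ± 0.0506 (SD, n = 4) for Psmb8 to Psmb5 and 0.208 ± 0.0278 (SD, n = 4) for Psmb10 to Psmb7.

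**Figure D4:**
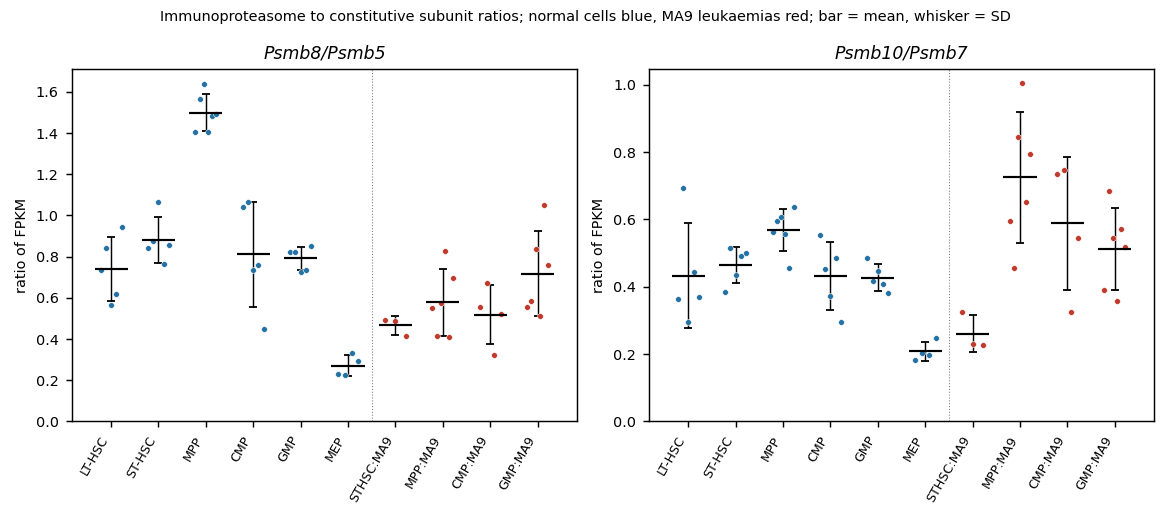
Ratio of FPKM of Psmb8 to Psmb5 (left) and of Psmb10 to Psmb7 (right) on the y axis, by group on the x axis. Points are samples (normal blue, leukaemia red), bars means and whiskers SD. The Psmb8 to Psmb5 mean is 1.499 in MPP and 0.579 in MPP:MA9, and MEP holds the lowest mean of both ratios.

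An F test over the 4 origins, in the same limma model, asked whether the leukaemia departed from its normal cell equally in all of them. It passed for 5 of the 9 genes, against 38% of all genes tested. These were Tap1 (adjusted p = 5.39e-06), Nlrc5 (8.55e-06), H2-K1 (3.40e-05), Tap2 (0.000331) and B2m (0.0212). B2m did not pass with no filter on low values (0.0569) or under the GC and length correction with the replicate block (0.0543). For Nlrc5 and H2-K1 the difference went in order of origin, from -2.62 and -1.61 in STHSC:MA9 to -0.48 and -0.26 in GMP:MA9. B2m went in this order too, to -0.67 in CMP:MA9 and -0.55 in GMP:MA9. Tap2 did not, with -0.57 in STHSC:MA9, -0.67 in CMP:MA9 and its largest difference in MPP:MA9. Tap1 stood at -1.34, -1.21 and -1.16 in the first 3 origins and at 0.17 in GMP:MA9. The test did not pass for Psmb10 (0.0558), H2-D1 (0.0932), Psmb8 (0.357) and Tapbp (0.969). Psmb10 passed when any of 8 libraries was left out (ST-HSC replicate 2, MPP replicate 6, CMP replicate 1, GMP replicate 4, STHSC:MA9 replicate 1, MPP:MA9 replicate 2, CMP:MA9 replicate 3 or GMP:MA9 replicate 5, adjusted p of 0.00756 to 0.0488), and H2-D1 without MPP:MA9 replicate 4 (0.0385) or GMP:MA9 replicate 1 (0.0492). Psmb10 also passed under median-ratio scaling (0.00880), the replicate block (0.0374) and the GC and length correction without and with the block (0.0180 and 0.0179), and H2-D1 under the last pair (0.0295 and 0.0477).

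H2-K1 means spanned 430 to 993 FPKM in the 4 normal cells of origin and 233 to 385 in the leukaemias, and Tap1 means 13.7 to 42.5 and 11.1 to 18.7. Nlrc5 means spanned 6.84 to 18.997 and 1.83 to 4.78 FPKM, and B2m means 2464 to 3521 and 1382 to 2011. In direct comparisons of leukaemias, limma called 1 of 9 genes between STHSC:MA9 and MPP:MA9, against 2.88% of 12128 genes. This was Psmb10, at 31.6, 25.8 and 29.5 FPKM in STHSC:MA9 and 35.2 to 75.2 (median 63.5) in MPP:MA9, 2.01-fold lower (log2 -1.005 ± 0.21 SE, adjusted p = 0.00499). The call sat at the fold limit and was lost without STHSC:MA9 replicate 2 or MPP:MA9 replicate 1, 3, 4 or 6 (log2 -0.93 to -0.98), and after the GC and length correction it was at -0.67 (adjusted p = 0.0811). Tapbp also passed the adjusted p (1.53-fold lower, 0.0204), 2 of 9 against 11.2%, but not after that correction, nor without STHSC:MA9 replicate 1 or 2 (adjusted p = 0.0724 and 0.0723). In this pair 6 genes had an unadjusted p below 0.05, all lower in STHSC:MA9, beside 3359 of 12128 genes. Nlrc5 passed with a pseudocount of 0.1 (log2 -1.03, adjusted p = 0.0410), in the fit of only the 2 groups (0.0385) and without MPP:MA9 replicate 5 (0.0478). H2-K1 and H2-D1 passed without MPP:MA9 replicate 2 (0.0432 and 0.0421), and H2-D1 without replicate 6 (0.0319). The other 5 pairs gave 0 calls of 9, against 0.363% (STHSC:MA9 with CMP:MA9), 0.536% (STHSC:MA9 with GMP:MA9), 0.115% (MPP:MA9 with CMP:MA9), 2.23% (MPP:MA9 with GMP:MA9) and 0.206% (CMP:MA9 with GMP:MA9). In this order 3, 4, 0, 3 and 1 of the 9 had an unadjusted p below 0.05, beside 1879, 2288, 1134, 3731 and 1651 of 12128 genes. In STHSC:MA9 with GMP:MA9, Nlrc5 was called once GMP:MA9 replicate 1 was left out (log2 -1.11, adjusted p = 0.0256). STHSC:MA9 has 3 samples, which limits these comparisons.

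Within MPP:MA9, replicates 4 and 2 were the highest and the lowest library for most of the 9 genes. Replicate 4 was the highest of its 6 for 8 of the 9 genes, with B2m at 2493 FPKM, H2-K1 at 636, H2-D1 at 670, Tap1 at 34.2 and Psmb8 at 123. H2-Q7 there was 67.2 FPKM and 5.36 to 11.5 in the other 5. Its S100a8, at 214 FPKM, was the lowest of the 6 (up to 12783), and its summed interferon-induced genes, at 96.6 FPKM, lay inside the range of the other 5 (78.4 to 164). Without it the differences from MPP were larger, with H2-K1 at -1.58 instead of -1.42 and Tap1 at -1.40 instead of -1.21, and 6 genes were called instead of 5. Replicate 2 was the lowest of the 6 for 7 of the 9 genes, and its S100a8 was the highest, at 12783 FPKM. Without replicate 2, Tapbp and Psmb10 passed in limma as higher in MPP:MA9 than in GMP:MA9 (adjusted p = 0.0381 and 0.00948). In GMP:MA9, replicate 5 was the highest of its group for 5 of the 9 genes. Its B2m, at 2830 FPKM, was the only value inside the GMP range. The next highest, at 2255, lay below the lowest GMP sample (2579). H2-Q7 in that replicate was 47.5 FPKM, and the next highest GMP:MA9 sample was at 19.7.

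Other genes of the class I pathway, 39 of the 41 listed, were counted by role. For leukaemias of ST-HSC, MPP, CMP and GMP origin, in this order, 5, 4, 3 and 5 were called higher and 6, 6, 5 and 6 lower. Of all genes tested 12.3%, 13.5%, 13% and 13.5% were called higher and 11.9%, 13.6%, 14.8% and 8.87% lower. The median log2 difference of the 39 was 0.04, -0.04, -0.12 and -0.01. The lower calls in the first 3 origins were all heavy chain genes outside the classical pair. H2-Q7 was at 253, 156, 212, 163 and 173 FPKM in ST-HSC and at 2.24, 3.43 and 2.16 in STHSC:MA9 (log2 -5.73 ± 0.49 SE, adjusted p = 3.92e-12). It was lower by 3.89 on the log2 scale in MPP:MA9 (5.36 to 67.2, median 10.7, against 167 to 228, median 209) and by 3.40 in CMP:MA9 (11.2, 7.92, 21.8 and 5.73 against 113, 91.7, 127, 128 and 141). In these 3 pairs the groups did not overlap, and in GMP:MA9 (5.92 to 47.5, median 12.1, against 24.5, 19.7, 38.6, 37.4 and 34.9) they did (log2 -1.09 ± 0.40 SE, adjusted p = 0.0202). H2-Q7 was thus called lower in all 4 origins. H2-Q6 and H2-Q4 were called lower in the first 3, with log2 differences of -4.86, -3.27 and -2.46 and of -2.54, -2.33 and -1.40. So were Cd1d1 and Mr1, heavy chain-like genes that present lipids and vitamin metabolites (Cd1d1 at -1.51, -1.55 and -1.60, Mr1 at -2.23, -2.03 and -1.57), and Mr1 also in GMP:MA9 (-1.07). H2-T10 was called lower in STHSC:MA9 (-1.47) and MPP:MA9 (-1.57). H2-Q7 holds 9.6% of the H2-K1 windows and 8.9% of the H2-D1 windows, so its reads too are partly shared with them.

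Not all heavy chain genes were lower. Fcgrt, the neonatal Fc receptor chain, was called higher in all 4 leukaemias (log2 1.29, 2.14, 2.88 and 2.37). H2-T23, which encodes Qa-1, did not pass in the first 3 (adjusted p of 0.437 to 0.803) and was called higher in GMP:MA9 (66.5 ± 12.1 against 28.2 ± 2.59 FPKM, SD, n = 6 and 5, log2 1.19 ± 0.15 SE, adjusted p = 1.59e-08). H2-Q10 was called higher in GMP:MA9 as well, but the samples overlapped (log2 1.06, adjusted p = 0.0215). H2-M3 passed in MPP:MA9 alone, under 2-fold (log2 -0.86, adjusted p = 0.00234).

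**Figure D5:**
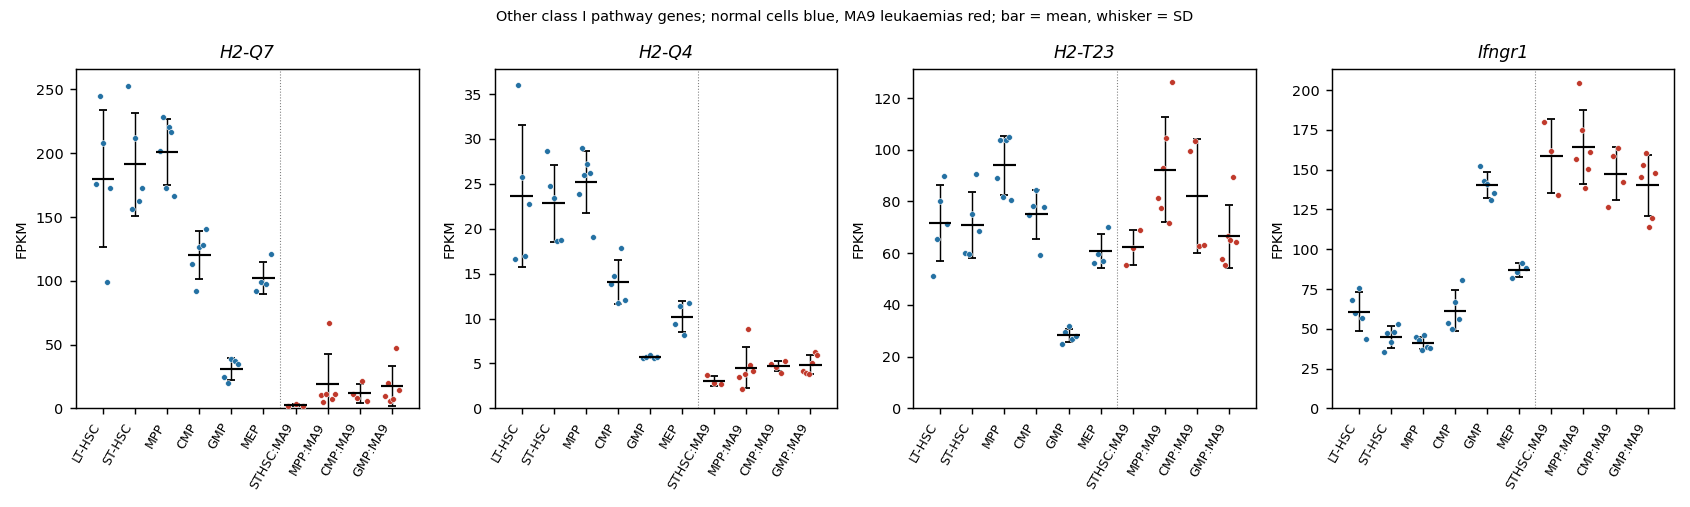
FPKM (y axis, from 0) of H2-Q7, H2-Q4, H2-T23 and Ifngr1 by group (x axis), normal cells blue and leukaemias red. Points are samples, bars means and whiskers SD. H2-Q7 is at 2.16 to 3.43 FPKM in STHSC:MA9 and at 156 to 253 in ST-HSC, and Ifngr1 is at means of 140 to 164 in the leukaemias and in GMP.

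The endoplasmic reticulum helpers differed most from normal in GMP:MA9. In GMP:MA9, 4 of 6 were called lower, against 8.87% of all genes: the chaperones Calr (173 ± 25.6 against 613 ± 40.0 FPKM, SD, n = 6 and 5, log2 -1.83), Canx (-1.08) and Hspa5 (-1.52) and the disulphide isomerase Pdia3 (-1.02). In the other 3 origins 0 of 6 were called by limma, with Calr and Canx lower under 2-fold in MPP:MA9 (-0.82 and -0.43) and CMP:MA9 (-0.70 and -0.54) and Pdia3 higher in STHSC:MA9 (0.43). Erap1, which trims peptides, passed in MPP:MA9 (-0.98), CMP:MA9 (-0.75) and GMP:MA9 (-0.92), under 2-fold each. The constitutive subunits Psmb5, Psmb6 and Psmb7 were lower under 2-fold in GMP:MA9 (log2 -0.71, -0.96 and -0.76), Psmb5 was higher in MPP:MA9 (0.42, adjusted p = 0.0357) and Psmb6 lower in CMP:MA9 (-0.53). The proteasome activator Psme1 was lower under 2-fold in STHSC:MA9, MPP:MA9 and CMP:MA9 (-0.51, -0.49 and -0.69) and Psme2 in CMP:MA9 and GMP:MA9 (-0.50 and -0.64). Psme3, singled out after its values were seen, was lower under 2-fold in all 4 (-0.40, -0.61, -0.90 and -0.79).

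The regulators included both directions. Ifngr1 and Ifngr2 encode the chains of the interferon gamma receptor. Ifngr2 was called higher in all 4 leukaemias (log2 1.81, 2.30, 1.72 and 1.54), and Ifngr1 in the first 3 (1.80, 1.96 and 1.27) but not in GMP:MA9 (140 ± 18.95 against 140 ± 8.23 FPKM, SD, n = 6 and 5, adjusted p = 0.942). Irf8 was called higher in STHSC:MA9 (1.59) and MPP:MA9 (1.87), Rfxap, a subunit of the factor that binds the X box, in STHSC:MA9 (1.08), and Nfkb1 in GMP:MA9 (1.2). Irf1, an activator of class I genes, was lower under 2-fold in STHSC:MA9 (-0.51) and MPP:MA9 (-0.81). Rfx5, another subunit of the X box factor and singled out after its values were seen, was lower under 2-fold in the first 3 (-0.91, -0.81 and -0.93).

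Of 22 listed interferon-induced genes 19 could be tested. In the same order 12, 13, 10 and 3 were called lower, beside 11.9%, 13.6%, 14.8% and 8.87% of all genes, and 0, 1, 1 and 3 higher, with median log2 differences of -1.51, -1.41, -1.06 and -0.13. The class I genes had medians of -0.57, -1.18, -0.67 and -0.26. The summed FPKM of the 22 genes ran from 47.8 to 169 in the leukaemias, and its group medians in normal cells were 312 in LT-HSC, 175 in ST-HSC, 228 in MPP, 121 in CMP, 79.6 in GMP and 95.3 in MEP.

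Genes of other cell types were looked at beside these results. The summed granulocyte list had group medians of 4143 to 18130 FPKM in the leukaemias, against 58.0 to 1147 in ST-HSC, MPP and CMP and 4699 in GMP, and the summed macrophage and dendritic cell list 102 to 155 against 7.76 to 24.6 in the 4 normal cells of origin. The T cell list was low in all groups, with medians of 0.09 to 9.09 FPKM and Cd8a under 1 FPKM in each sample, and the NK cell list had medians of 0.23 to 3.97 and the B cell list of 16.6 to 39.6. The erythroid list had medians of 13.2 to 61.8 in the leukaemias and 114 to 4290 in ST-HSC, MPP, CMP and GMP. Of the libraries high in S100a8, LT-HSC replicates 4 and 5 and ST-HSC replicate 4 also had erythroid sums of 50688, 27752 and 27434 FPKM. ST-HSC replicate 5, at 4309, was near ST-HSC replicate 2 (4290). The granulocyte sum of ST-HSC replicate 4 was 38016.5 FPKM. The part of these cell types in the class I results was not tested. Without the ST-HSC libraries high in S100a8, Nlrc5 (-2.81), H2-K1 (-1.62), Tap1 (-1.43) and B2m (-1.34) were still called lower in STHSC:MA9.

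Over the 49 samples, the genes split by likeness. Pearson's r on log2(FPKM + 1) was 0.90 between H2-K1 and Tap1, 0.89 between H2-K1 and Nlrc5, 0.84 between B2m and H2-K1 and 0.82 between B2m and Nlrc5, but -0.46 between H2-D1 and Nlrc5 and -0.18 between H2-K1 and H2-D1. H2-D1 was closest to Tapbp (0.71). Outside the set, the 5 genes most like the mean z score of the 9 genes were Zdhhc8 (r = 0.86), Camk2a (0.84), Mfge8 (0.84), Il12a (0.83) and Sesn1 (0.83). The points share groups, with normal and leukaemia samples apart, and these values describe the 49 samples only.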

How the data were processed

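The authors deposited FPKM values per Ensembl gene, rounded to 2 decimals. RNA of sorted cells had been amplified and sequenced, and, per the labels, processed with RSEM and mm9. The aligner and annotation are not given in the sources used here. The table has 68 columns of values. The 49 that carry the name of a sample were analysed, and 19 that match none were not. The authors' own edgeR test on counts was not used. Symbols, positions, GC content and length came from GENCODE M1 on NCBIM37 (33068 genes matched). No pair of samples held identical values.

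Filtering kept genes averaging 1 FPKM or more in a fit, and these were tested on log2(FPKM + 1) with limma 3.58.1 in R 4.3.3 (mean-variance trend, two-sided, Benjamini-Hochberg), in separate fits for the 4 leukaemias with their normal cells, the 19 leukaemias and the 30 normal samples. The scripts were tested on simulated data. Ratios were tested by exact permutation in scipy 1.17.1. With no value for Psmb9, 8 ratio tests were made where 12 had been planned. The other steps used Python 3.11.15, numpy 2.4.6, pandas 2.3.3 and matplotlib 3.10.9.

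Named genes were the members, pathway genes fixed by name or called in a leukaemia against its normal cell, and the 5 most alike. The members and lists were chosen with earlier results of these data known. H2-Q1 had no row and H2-Q2 had 2, and both were left out. The values of 1 further listed gene are not reported here. Alternatives were a pseudocount of 0.1, no filter, median-ratio scaling, no fold threshold, fits of only the 2 groups, a block for replicate number, a GC and length correction with and without the block, and leaving out each replicate or the libraries high in S100a8. Deviations of samples with the same replicate number correlated at 0.142 to 0.683 in LT-HSC with ST-HSC, which was read as a pairing. The main fits held no block, which was used as an alternative only. The libraries high in S100a8 bear the same replicate numbers in both groups, and their part in this correlation was not tested. No other groups were read as paired, although CMP with GMP stood at 0.048 to 0.290. P-values measure the spread between mice, and the study made replicate experiments that the labels do not assign to samples.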

Additional observations from a re-analysis of the deposited data

Results flagged for a closer look

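By the F test in limma, 5 genes differed among the 4 origins in how far the leukaemia departed from its normal cell. The adjusted p was 0.0212 for B2m, 3.40e-05 for H2-K1, 5.39e-06 for Tap1, 0.000331 for Tap2 and 8.55e-06 for Nlrc5. In each the difference was closest to 0 or above it in GMP:MA9.

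In 81 tests of a gene within a group of 4 to 6 samples, 2 samples stood far from the rest, and chance alone flags about 1 in 20. Tap1 in MPP:MA9 replicate 4 was at 34.2 FPKM, above the other 5 (12.9 to 17.9), and the same library was highest for 8 of the 9 genes. Nlrc5 in ST-HSC replicate 4 was at 10.2 FPKM, below the other 4 (17.1 to 20.9), and that library was one of those high in S100a8 (12626 FPKM).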

How the results depend on the processing

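No called gene changed direction under any alternative tried. Without the fold threshold, counts of members rose from 2 to 7 (CMP:MA9 against CMP), 0 to 5 (GMP:MA9 against GMP), 1 to 2 (STHSC:MA9 against MPP:MA9), 0 to 2 (LT-HSC against ST-HSC), 1 to 7 (ST-HSC against MPP), 0 to 4 (MPP against CMP), 2 to 5 (CMP against GMP), 1 to 7 (CMP against MEP) and 2 to 5 (GMP against MEP), by construction. Median-ratio scaling left 1 in CMP:MA9 against CMP, 0 in STHSC:MA9 against MPP:MA9, 0 in ST-HSC against MPP and 1 in CMP against GMP. The GC and length correction, with or without the replicate block, left 0 in each of the last 3. The cause was not tested. A pseudocount of 0.1 gave 2 in STHSC:MA9 against MPP:MA9. With the replicate number as a block that comparison had 0 calls and 0 of 8 ratio tests passed instead of 1, where a test over 6 pairs is too small to pass after adjustment over 8 (adjusted p = 0.25 by exact permutation). Apart from LT-HSC and ST-HSC, same-numbered samples are not known to share more than a number (mean correlations from -0.21 to 0.16). The block moved no other count of calls beyond 1.5 times.

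Leaving out 1 replicate gave 4 to 4 calls in STHSC:MA9 against ST-HSC, 5 to 6 in MPP:MA9 against MPP, 2 to 3 in CMP:MA9 against CMP, 0 to 1 in GMP:MA9 against GMP, STHSC:MA9 against MPP:MA9, STHSC:MA9 against GMP:MA9 and ST-HSC against MPP, 1 to 2 in GMP against MEP, 5 to 6 for the F test, and no other change. The FPKM values carry no read total for a sample, so no counting interval is given.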
